A study of Rattus norvegicus with 4 samples.

Results

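*Sgk1*, *Cebpd*, *Fkbp5*, *Tsc22d3*, *Per1* and *Pdk4* are genes known to respond to glucocorticoids, and these 6 of the 32623 genes counted in rat trigeminal nerve tissue were followed here by spot, region and capture area. All 6 were found by symbol. They were chosen by their known biology and by the levels of TN and HC tissue already seen in these data. The TN against HC values of the 6 genes below are therefore a description, with no test. What is tested is how their levels differed between regions within capture areas. The TN areas enter that contrast too, so it is not fully independent of how the genes were chosen. No steroid was measured, so the name of the group comes from known biology and not from the data.

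Glucocorticoids, which in the rat are mainly corticosterone, enter cells and bind a receptor that is held in the cytoplasm by chaperones. The bound receptor moves to the nucleus, attaches to DNA elements near its target genes and raises or lowers their transcription. Several of these targets also answer to other signals, such as serum, cytokines, fasting and the circadian clock. Among the genes followed here, *Sgk1* encodes a kinase that regulates ion channels and transporters, *Cebpd* a transcription factor of the acute-phase response, *Fkbp5* a co-chaperone that lowers the receptor's affinity for hormone, and *Tsc22d3* the anti-inflammatory protein GILZ. *Per1* encodes a repressor of the circadian clock. *Pdk4* encodes a kinase that switches off pyruvate dehydrogenase.

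The tissue held the trigeminal root, the semilunar ganglion and the proximal branches of wild-type rats, which the methods give as adult male Sprague–Dawley animals. In the TN model the nerve root was chronically compressed on a single side. Capture areas TN1, TN2 and TN3 each held the diseased side of 1 animal, whereas the area HC held tissue of 2 animals that the barcodes do not tell apart and is a single sample. The series description takes HC from the healthy side of 2 of the TN animals, while the methods describe sham-operated rats, so TN against HC may compare sides of the same animals. The labels name no drug treatment, and the tissue label reads trigeminal neuralgia for all 4 areas, HC included. The slide prints the same barcodes in every area, and 2337 barcode sequences occurred in more than 1 area, so spots were told apart by barcode and area.

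The 4 areas held 6773 spots under tissue, 1256 to 2013 per area, with 23546025 to 41335930 unique molecular identifiers (UMIs) per area. The median per spot was 9487, 30808 and 14480 UMIs in the TN areas and 14616 in HC. A Visium spot can cover several cells of different types. Spots were placed in regions by marker genes, none of which is among the 6 genes, and 568 central myelin, 1239 ganglion and 905 nerve spots carry the main comparisons. Summed central myelin markers reached 3083 to 4137 counts per 1000000 UMIs (CPM) in central myelin spots, against 70.6 to 196.3 in ganglion spots. Summed peripheral myelin markers reached 58811 to 131170 in nerve spots, against 9531 to 15303 in ganglion spots. Both lists also placed the spots, so these differences were fixed in advance. The central myelin spots were not pure. They also held summed peripheral myelin markers at 3132 to 6584 CPM and astrocyte markers at 2609 to 7540 CPM over the areas. TN2 had the fewest nerve spots, 54, against 146 to 382 in the other areas. TN1 stood apart in the tests across all genes, since leaving it out raised the genes called between TN and HC in the ganglion from 1 to 1267. Spots were also grouped by K-means over all areas together, with no correction between areas. Most ganglion spots of TN2 and TN3 fell outside the cluster that held most of HC, whereas most of TN1 fell within it. The single cluster with nerve markers held 422, 11 and 386 TN spots and 59 HC spots. Of the pair of clusters with ganglion markers, the first held 201, 42 and 126 TN spots and 941 HC spots and the other 111, 373 and 273 TN spots and 3 HC spots, and of the pair with central myelin markers, the first held 309, 143 and 224 TN spots and 134 HC spots and the other 71, 47 and 60 TN spots and 340 HC spots. The part of this split in the TN against HC values within a region was not tested. Values of the TN areas are given in the order TN1, TN2 and TN3. In these sums, fewer cells of a type and less RNA per cell cannot be told apart.

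Of the 6 genes, 5 had a promoter window in RefSeq (GRCr8), with 9 windows in all, each holding 250 bases before and 50 bases after an annotated start. The UMI counts come from the 3′ ends of transcripts and do not separate starts, so the 3 windows of *Sgk1*, the gene with the largest TN to HC ratio in central myelin, are shown to give the alternatives behind its counts. Capitals mark a TATA box (TATAAA) in the windows at chr1:24807182-24807481 and chr1:24804782-24805081, and an AP-1 site (TGANTCA) in the window at chr1:24805521-24805820, all on the minus strand.
Sgk1 window at chr1:24807182-24807481: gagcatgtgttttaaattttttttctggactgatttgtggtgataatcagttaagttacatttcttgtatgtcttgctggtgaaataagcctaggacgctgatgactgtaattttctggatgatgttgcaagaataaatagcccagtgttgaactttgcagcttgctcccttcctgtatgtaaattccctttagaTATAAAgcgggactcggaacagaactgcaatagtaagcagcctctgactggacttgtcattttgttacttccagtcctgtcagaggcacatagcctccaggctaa
Sgk1 window at chr1:24805521-24805820: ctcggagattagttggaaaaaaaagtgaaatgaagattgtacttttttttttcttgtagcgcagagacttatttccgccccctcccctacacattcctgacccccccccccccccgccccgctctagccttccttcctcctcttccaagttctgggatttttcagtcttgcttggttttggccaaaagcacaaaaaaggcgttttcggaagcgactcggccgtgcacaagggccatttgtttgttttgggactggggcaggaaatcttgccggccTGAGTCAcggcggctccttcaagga
Sgk1 window at chr1:24804782-24805081: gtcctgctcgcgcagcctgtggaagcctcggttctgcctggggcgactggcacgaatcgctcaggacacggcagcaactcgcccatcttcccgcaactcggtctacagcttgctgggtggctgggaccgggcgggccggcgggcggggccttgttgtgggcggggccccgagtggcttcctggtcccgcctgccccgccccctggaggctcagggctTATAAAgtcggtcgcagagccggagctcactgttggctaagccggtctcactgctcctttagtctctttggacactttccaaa

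None of the 9 windows held the glucocorticoid response half-site AGAACA on either strand, a run found in 20.7% of the 33469 rat promoter windows of this length. The longer core of the glucocorticoid response element was found in 0.439% of windows and in none of the 9. The cyclic AMP element TGACGTCA (1.83% of windows), the E-box CACGTG (6.42%) and the Stat site TTCNNNGAA (8.87%) were likewise in none of them. The TATA box was in 14.2% of all windows and the AP-1 site in 7.33%, and both were added to the search after the windows had been seen. *Tsc22d3* had a TATA box in 1 of its 3 windows, and the single windows of *Fkbp5*, *Per1* and *Pdk4* held none of the motifs searched. A match is a description of letters, and no match says only that they are not in these windows.

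*Sgk1* stood above HC in every TN area, and did so in each of the 3 regions. In central myelin, its level in TMM-scaled CPM (scaled so that most genes keep their level between sums) was 192, 154 and 159.8 in the TN areas and 40.4 in HC. The TN values lay close together there, with a mean of 169 ± 20.5 (SD, n = 3), 4.18-fold the HC level. In nerve, *Sgk1* stood at 319, 109 and 228 CPM in the TN areas and 66.3 in HC. The spread among TN areas was wider in nerve, where the lowest TN area was 1.64-fold and the highest 4.81-fold the HC level. In the ganglion, the values were 112, 48.7 and 76.1 CPM in the TN areas and 42.3 in HC. The ganglion thus had the smallest ratio of mean TN to HC, 1.87-fold, and TN2 exceeded HC by only 1.15-fold, with 95% Poisson intervals of 43.6 to 54.1 and 39.9 to 44.9 CPM that overlap. These intervals cover counting error only. Mitochondrial genes, a sign of RNA and tissue quality, took 11.6%, 7.81% and 7.5% of UMIs in the TN areas and 5.90% in HC, highest in TN1 as was *Sgk1* in each region, and their part in its level was not tested.

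Across the genes of the same table, all 3 TN areas lay above HC for 18.1% in central myelin, 28.8% in the ganglion and 36.5% in nerve. A level of at least 2-fold of HC in all 3 TN areas was rarer, at 1.56%, 1.21% and 5.7% of genes in the same order, and *Sgk1* met it in central myelin only. All 3 TN areas lay above HC in each of the 3 regions for 6.16% of genes. Since earlier TN and HC values of these data chose *Sgk1* and *Cebpd*, these shares are given for scale.

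*Cebpd* too stood above HC in every TN area and region, and unlike *Sgk1* its ratio was near 3-fold or more throughout. In the ganglion its level was 44.5, 61.9 and 42.3 CPM in the TN areas and 17.0 in HC. The ganglion TN mean of 49.6 ± 10.7 (SD, n = 3) was 2.91-fold the HC level. In nerve, *Cebpd* reached 92.8, 83.3 and 107 CPM in the TN areas and 24.1 in HC. The TN areas were close to each other in nerve, at 3.45-fold to 4.44-fold of HC. In central myelin the counts were low, 17 to 28 UMIs per area, and gave 19.8, 32.4 and 35.5 CPM in the TN areas and 9.85 in HC. *Cebpd* was at 2-fold or more of HC in all 3 TN areas in all 3 regions, but its lowest ratio, 2.01 in central myelin of TN1, rests on 28 against 20 UMIs. The 95% Poisson intervals of that pair, 13.2 to 28.6 and 6.02 to 15.2 CPM, overlap, and with a pseudocount of 1 CPM its log2 ratio was 0.94, under 2-fold.

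**Figure D1:**
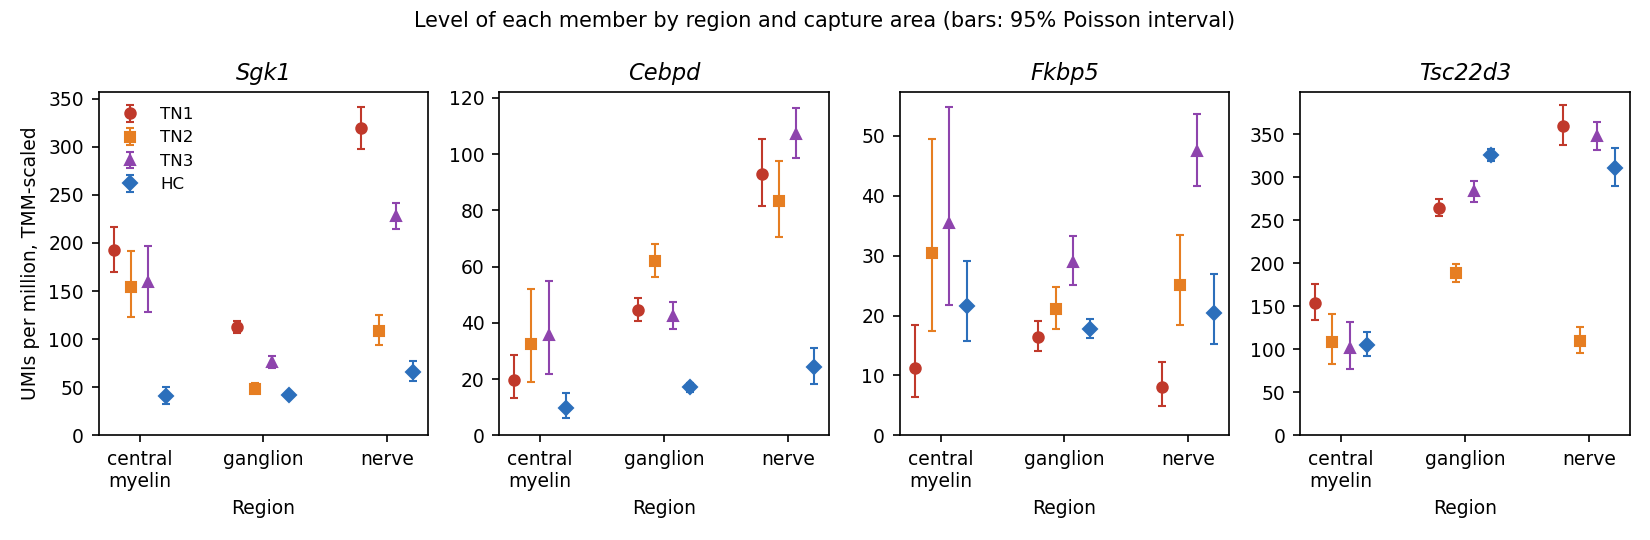
Level of *Sgk1*, *Cebpd*, *Fkbp5* and *Tsc22d3* in TMM-scaled CPM (vertical axes, from 0) in central myelin, ganglion and nerve spots, with a point for each capture area and bars for the 95% Poisson interval of its count. The HC diamonds are below all TN points for *Sgk1* and *Cebpd* in every region, whereas *Fkbp5* in TN1 and *Tsc22d3* in ganglion spots of all TN areas lie below HC.

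*Fkbp5*, among the best known direct targets of the receptor, did not stand above HC in every TN area as *Sgk1* and *Cebpd* did. In nerve it stood at 8.02, 25.1 and 47.4 CPM in the TN areas and 20.5 in HC. TN1 was below HC and the other TN areas above it in nerve, and the same order held in central myelin and in the ganglion. In central myelin, *Fkbp5* was at 11.3, 30.5 and 35.5 CPM in the TN areas and 21.7 in HC, from 16 to 44 UMIs per area. In the ganglion, the range was narrower, with 16.5, 21.1 and 29.0 CPM in the TN areas and 17.8 in HC. The ratio of mean TN to HC was 1.19 in central myelin, 1.25 in the ganglion and 1.31 in nerve, and in each region the HC level was within the range of the TN areas.

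*Tsc22d3*, the most abundant of the 6 with 32184 UMIs, stood below HC in every TN area in the ganglion. Its ganglion level was 264, 188 and 283 CPM in the TN areas and 325 in HC. The TN mean there was 0.754 of the HC level, and 31.8% of genes had all 3 TN areas below HC in the ganglion. In nerve, *Tsc22d3* was at 359.9, 110.0 and 348 CPM in the TN areas and 311 in HC. TN2 was far below the other areas in nerve, and the other TN areas were slightly above HC. In central myelin, the values of 154, 109 and 101 CPM in the TN areas and 105 in HC overlapped between TN and HC.

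*Per1* and *Pdk4* were hardly captured, with 49 and 23 UMIs in all 6773 spots, and both failed the filter on low counts in the fit across regions. *Per1* had 20, 9 and 16 UMIs in the TN areas and 4 in HC over all spots, which is 0.841, 0.224, 0.499 and 0.101 CPM. *Pdk4* had 3, 7 and 7 UMIs in the TN areas and 6 in HC. In nerve, *Per1* had 8 UMIs in TN1, 6 in TN3 and none in TN2 or HC, where 0 of 54 and 0 of 146 spots allow a share of up to 6.60% and 2.50% of spots with a UMI (exact binomial, 95%). No TN to HC ratio is given for the 2 genes by region because counts of 0 to 8 UMIs do not carry one.

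Markers of some other cell types differed between TN and HC in the same spots. The connective tissue and sensory neuron lists also served to place the spots. For scale, all 3 TN areas lay above HC for 36.5% of all genes in nerve, 28.8% in the ganglion and 18.1% in central myelin. In nerve, 33.1% of all genes had all 3 below. In nerve, summed macrophage markers were at 551 to 969 CPM in the TN areas and 195 in HC, with 7 of 8 markers above HC in all 3 TN areas. Summed connective tissue markers in nerve were at 4789 to 6704 CPM in TN and 2708 in HC, with 6 of 6 above HC. In the ganglion, macrophage markers were at 278 to 417 CPM in TN against 156 in HC (7 of 8 above), connective tissue markers at 1045 to 2154 against 1019 (5 of 6 above) and nerve injury genes at 692 to 1533 against 156 (9 of 9 above). In central myelin, macrophage markers were at 625 to 1646 CPM in TN and 940.5 in HC, and 2 of 8 were above HC in all TN areas, while connective tissue markers were at 409 to 1808 against 584 (3 of 6 above). Summed sensory neuron markers in nerve spots were at 1630 to 2590 CPM in TN and 5052 in HC, with 11 of 12 below. Endothelial markers were at 190 to 228 CPM in nerve of TN and 208 in HC. No defining macrophage or connective tissue marker was at 0 in all areas of any of these regions. The part of these cells in the levels of *Sgk1*, *Cebpd* and *Tsc22d3* was not tested.

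Between regions of the same areas, *Cebpd* and *Tsc22d3* were higher in nerve and ganglion than in central myelin, and *Sgk1* was lower in the ganglion than in central myelin or nerve. These contrasts were tested with edgeR's quasi-likelihood test on summed UMIs with the capture area as a block (12 sums from 4 areas) and Benjamini-Hochberg adjustment over 9979 genes. 4 of the 6 genes passed the filter on low counts. Of these, 3 were called between ganglion and central myelin, where 47.8% of all genes were called, 2 between nerve and central myelin (30% of genes) and 2 between nerve and ganglion (47.7%).

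*Sgk1* was lower in the ganglion than in central myelin by edgeR, with a log2 fold change of -0.85 (SE 0.236, adjusted p = 0.0103). The log2 ratios of the TN areas were -0.77 in TN1, -1.65 in TN2 and -1.06 in TN3, while HC had 0.07. Whether TN and HC differ in this ratio was not tested. The call was lost without TN2 (adjusted p = 0.085) or without TN3 (adjusted p = 0.0599). *Sgk1* was higher in nerve than in the ganglion in 4 of 4 areas (log2 fold change 1.22, SE 0.225, edgeR adjusted p = 0.0011). Its level did not pass the test between nerve and central myelin (log2 fold change 0.38, SE 0.236, edgeR adjusted p = 0.26), and TN2 went against the other areas there with a log2 ratio of -0.50. Without TN2 the log2 fold change was 0.67 (edgeR adjusted p = 0.0669), and with K-means clusters in place of marker regions it was 1.07 and passed (edgeR adjusted p = 0.00111).

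*Cebpd* rose from central myelin through ganglion to nerve in all 4 areas. Its log2 fold change by edgeR was 0.82 for ganglion against central myelin (SE 0.214, adjusted p = 0.00684), 0.86 for nerve against ganglion (SE 0.167, adjusted p = 0.00157) and 1.68 for nerve against central myelin (SE 0.215, adjusted p = 6.7e-05). HC alone also rose from 9.85 through 17.0 to 24.1 CPM. All 3 calls for *Cebpd* were made under every alternative run, with adjusted p up to 0.0375.

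*Tsc22d3* was higher in the ganglion (log2 fold change 1.18, SE 0.236, edgeR adjusted p = 0.00137) and in nerve (1.19, SE 0.238, adjusted p = 0.00207) than in central myelin, in 4 of 4 areas each. Nerve and ganglion did not differ beyond the spread for *Tsc22d3* (0.01, SE 0.22, edgeR adjusted p = 0.969). In TN2 the nerve level was hardly above central myelin, with a log2 ratio of 0.02, against 1.22 to 1.77 in the other areas. *Fkbp5* did not pass the test in any region contrast, with log2 fold changes of -0.14 (SE 0.258), 0.00 (SE 0.27) and 0.13 (SE 0.22) and edgeR adjusted p from 0.638 to 0.996. Macrophage markers also differed between regions. Of 7 tested, 6 were higher in nerve than in the ganglion (23.7% of all genes). In the ganglion, 5 were lower and 1 higher than in central myelin (23.1% and 24.8%). In nerve, 4 were lower and 1 higher than in central myelin (15.5% and 14.5%), where *Cebpd* and *Tsc22d3* were higher. Connective tissue markers, a list that also served to place the spots, were higher in nerve than in the ganglion for 6 of 6. The part of macrophages and connective tissue in the region differences was not tested.

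**Figure D2:**
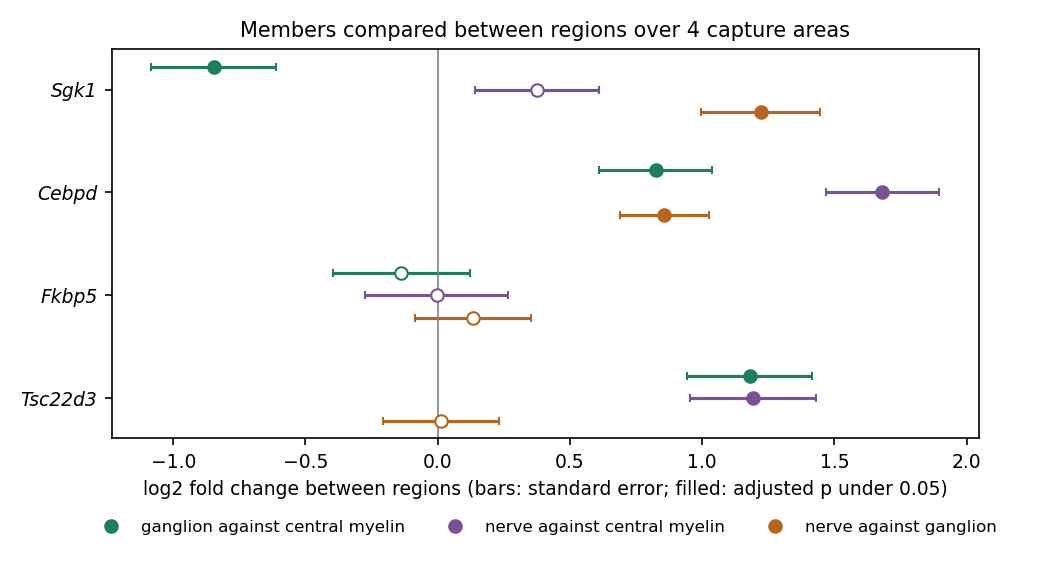
Log2 fold change (horizontal axis) between regions of the 4 genes that passed the count filter. Contrasts are ganglion against central myelin, nerve against central myelin and nerve against ganglion. Bars give the standard error taken from the F statistic of edgeR's quasi-likelihood test, and filled points an adjusted p under 0.05. *Cebpd* is to the right of 0 in all 3 contrasts, *Sgk1* is at -0.85 for ganglion against central myelin, and *Fkbp5* has open points around 0.

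Outside these regions, *Cebpd* reached its highest level in connective tissue spots. In CPM without TMM scaling, *Cebpd* stood at 119 to 131 in connective tissue spots of the 3 TN areas, a mean of 124 ± 6.35 (SD, n = 3), against 86.1 to 105 in TN nerve. HC had 1 connective tissue spot and gives no value there. The lowest *Cebpd* levels in TN were in central neuron spots, at 13.2 and 15.0 in the 2 areas that held 20 or more of them. In astrocyte spots, *Cebpd* averaged 62.3 ± 35.6 (SD, n = 3) in TN and 13.0 in HC. Connective tissue spots lay above nerve spots in every TN area and central neuron spots below all others, whereas the wide astrocyte range of 26.9 to 98.2 overlapped those of central myelin, ganglion and nerve.

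*Sgk1* was spread more evenly over the tissue. Among regions with a value in all 3 TN areas, it averaged 212 ± 90.6 (SD, n = 3) CPM in nerve and 156 ± 25.6 in central myelin. It averaged 150 ± 86.4 in connective tissue, 117 ± 28.1 in astrocyte spots and 86.4 ± 34.7 in the ganglion, and neighbours in this order overlap in range. Blood and bone spots stood at 230 CPM in TN1 and 130 in TN3, and central neuron spots at 175 in TN1 and 108 in TN2. HC stood below all TN areas for *Sgk1* and for *Cebpd* in each of the 6 groups of spots that HC shares with TN, counting the spots with no clear region, with *Sgk1* at 27.1 to 67.4 and *Cebpd* at 8.68 to 24.5 CPM. TN1 had the highest *Sgk1* level in every group of spots in which it was measured, and TN3 had the highest *Cebpd* level in each group it was measured in apart from the ganglion and the spots with no clear region. *Fkbp5* was highest in TN3 in every group of spots with a TN3 value.

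**Figure D3:**
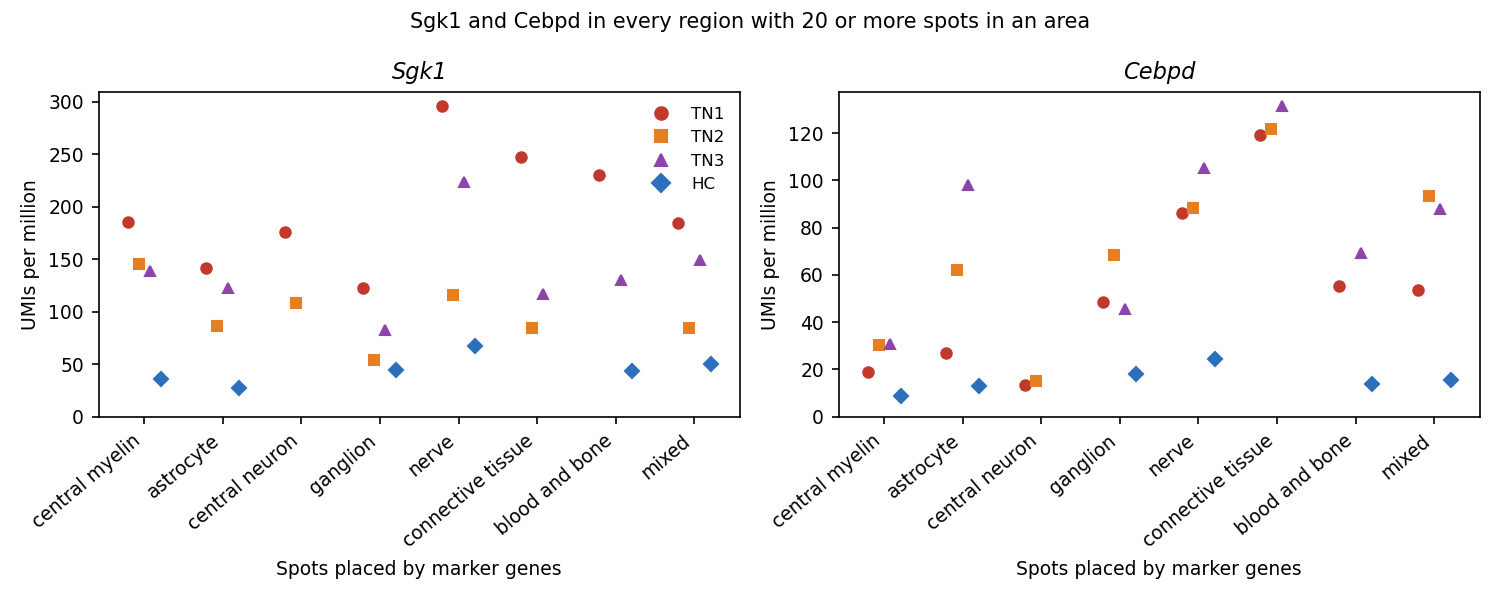
Level in CPM (vertical axes, from 0, without TMM scaling) of *Sgk1* and *Cebpd* in every region with 20 or more spots in a capture area, with a point per area. HC is the lowest point wherever it is shown, *Cebpd* peaks at 119 to 131 in connective tissue spots, and *Sgk1* is highest in TN1 throughout.

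The share of spots with at least 1 UMI of *Sgk1* or *Cebpd* was also higher in TN than in HC. In nerve, an *Sgk1* UMI was held by 88.5%, 96.3% and 89.8% of TN spots and 71.2% of HC spots, and a *Cebpd* UMI by 47.4%, 87.0% and 69.1% against 29.5%. Depth per spot differed, with a median of 8038, 30201 and 13947.5 UMIs in TN nerve spots and 16578 in HC. After each spot was thinned to 2000 UMIs, the expected shares in nerve were 44.8%, 21.2%, 36.3% and 13.7% for *Sgk1* and 15.7%, 15.7%, 18.7% and 4.95% for *Cebpd*. Of the 9 pairs of TN area and region, all 9 had a higher share than HC for both genes, before and after thinning. These shares come from the same counts by which both genes were chosen, and every pair is set against the single HC area. They restate the levels in another form, and the count over all genes was not computed. For *Tsc22d3*, 1 of 9 pairs was above HC before thinning and 3 of 9 after it. Thinning left out 0 to 16 shallower spots per area in these regions.

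Among the other genes known to be induced by glucocorticoids, a list of 25 with 22 in the region fit, all 3 TN areas lay above HC for 6 in central myelin, 8 in the ganglion and 9 in nerve. That is 27.3%, 36.4% and 40.9% of the list, against 18.1%, 28.8% and 36.5% of all genes. The list's median log2 ratio of TN to HC was 0.42 in central myelin, 0.16 in the ganglion and 0.48 in nerve, beside -0.04, 0.00 and 0.05 over all genes. *Nfkbia*, the inhibitor of NF-κB, *Errfi1*, a feedback inhibitor of EGF receptors, and *Ddit4*, an inhibitor of mTORC1, were above HC in all 3 TN areas in all 3 regions, and were named after their values were seen. *Nfkbia* in nerve was at 84.0, 41.9 and 56.9 CPM in the TN areas and 14.9 in HC. *Ddit4* in nerve was at 319, 122 and 240.0 CPM in the TN areas and 79.2 in HC, with the areas in the same order as for *Sgk1*. *Cdkn1c*, a cell cycle inhibitor, was below HC in all 3 TN areas in central myelin and the ganglion. All 3 TN areas were below HC for 1 of the 22 in central myelin, 5 in the ganglion and 2 in nerve, which is 4.55%, 22.7% and 9.09% of the list against 21.9%, 31.8% and 33.1% of all genes. By edgeR, with 2 residual degrees of freedom for TN against HC, 0 of its genes were called in any region. That test called 0% of 8535 genes in central myelin, 0.00827% of 12090 in the ganglion and 4.7% of 10438 in nerve, and at an unadjusted p under 0.05 it had 194, 1374 and 2518 genes. DESeq2 called 0, 179 and 613 genes in the same order.

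**Figure D4:**
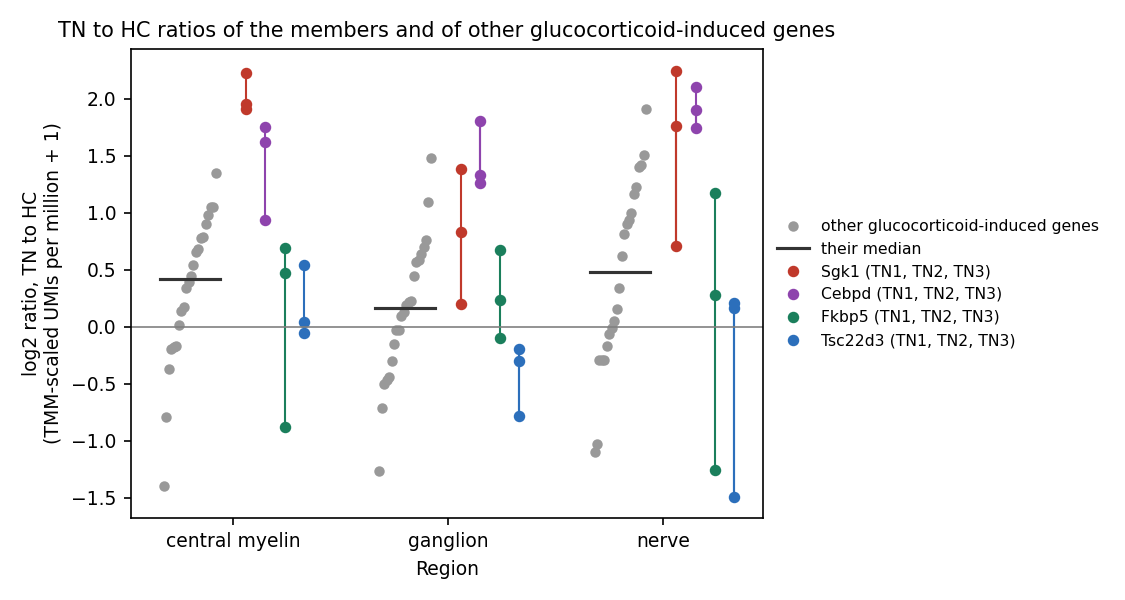
Log2 ratio of TN to HC (vertical axis, TMM-scaled CPM plus 1) by region, with grey points for the mean over TN areas of each of 22 other glucocorticoid-induced genes, a dark line for their median and coloured points for *Sgk1*, *Cebpd*, *Fkbp5* and *Tsc22d3* in each TN area. The medians are 0.42, 0.16 and 0.48, all *Sgk1* and *Cebpd* points are above 0, and *Fkbp5* and *Tsc22d3* points lie on both sides of 0 in nerve.

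The same list also differed between regions. In the ganglion 10 of 22 were lower and 3 higher than in central myelin by edgeR (23.1% and 24.8% of all genes), led by *Cdkn1c* with a log2 fold change of -3.97 and *Mt2A*, a metal-binding metallothionein, with -3.03 (adjusted p = 1.5e-06 and 3.3e-06). In nerve 13 of 22 were higher and 2 lower than in the ganglion (23.7% and 24.0% of genes), led by *Mt1* at 1.88 (edgeR adjusted p = 0.000222). Against central myelin, 4 were higher and 5 lower in nerve (14.5% and 15.5% of genes).

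Of the genes that make, admit or bind glucocorticoids, 5 of 7 were found and the receptor gene *Nr3c1* was not analysed here. *Hsd11b1*, whose enzyme regenerates active hormone, was highest in central myelin, at 48.8, 38.1 and 12.4 CPM in the TN areas and 6.90 in HC. It fell in the ganglion (log2 fold change -1.70, edgeR adjusted p = 0.00129) and in nerve (-2.55, adjusted p = 0.000352) against central myelin. Between TN and HC, its central myelin values varied among TN areas, rest on a single HC area and are a description only. The mineralocorticoid receptor gene *Nr3c2* was at 0 to 0.493 CPM in all 12 sums. Of the 12 receptor chaperones and cofactors, *Fkbp4*, which counteracts *Fkbp5* at the receptor, was lower in nerve of TN (log2 fold change -1.23, SE 0.205, edgeR adjusted p = 0.0314), at 161, 156 and 142 CPM in the TN areas and 342 in HC. It was the only call of the list between TN and HC, in a contrast that called 3.9% of genes lower and 0.805% higher. Without TN3, however, no gene was called in nerve. Sensory neuron markers were also lower in nerve spots of TN, 1630 to 2590 CPM against 5052 in HC, and *Fkbp4* was itself lower in nerve than in the ganglion (log2 fold change -0.80, edgeR adjusted p = 0.00516). The part of neurons in the *Fkbp4* difference was not tested. In the ganglion, 6 of 10 chaperones and cofactors were higher than in central myelin (24.8% of all genes), with *Dnaja1* at 1.24 and *Fkbp4* at 1.14 on the log2 scale (edgeR adjusted p = 0.000153 and 0.000615).

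The relatives and targets of single members are described here by level, since no count of calls against the single HC area is read as a result. Of 12 circadian clock genes with values, 8 had all 3 TN areas below HC in the ganglion (31.8% of all genes). Among them was *Dbp*, a clock-controlled transcription factor, at 22.7, 33.4 and 26.9 CPM in the TN areas and 58.0 in HC. In the same list *Npas2*, a partner of *Arntl* in the clock's activating arm, was above HC in all 3 TN areas in each region, with a log2 fold change of 3.43 (SE 1.10, edgeR adjusted p = 0.132) in nerve. Of the *Cebp* family and *Stat3*-responsive genes, 6 of 9 were above HC in all TN areas in the ganglion and 6 of 9 in nerve (28.8% and 36.5% of all genes). *Timp1*, an inhibitor of metalloproteinases, was at 361, 631 and 655 CPM in the TN areas and 156 in HC in nerve (log2 fold change 1.75, SE 0.421, edgeR adjusted p = 0.0703). *Cebpb*, the closest relative of *Cebpd* on the list, was at 20.7 to 35.4 CPM in TN nerve and 12.1 in HC. Of the *Sgk* kinases and substrates, 5 of 12 were in the region fit. Of these 5, 1 was called higher and 1 lower in nerve than in the ganglion (23.7% and 24.0% of all genes). *Ndrg1*, a known substrate of the kinase, was higher (log2 fold change 1.71, edgeR adjusted p = 0.000125). *Nedd4l*, of the same list, was lower (-0.74, edgeR adjusted p = 0.00459). *Sgk3* was at 0 to 3.55 CPM.

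The genes most like *Sgk1* over 24 sums of region and area, among 7809 genes with a mean of 10 CPM or more, were *Nfkbia* (Pearson r = 0.840), *Prpf18* (0.768), AABR07028013.1 (0.759), *Ddit4* (0.752) and *Mrpl33* (0.750). The genes most like *Cebpd* were *RT1-Da* (0.952), *Cd74* (0.952), *Cyp1b1* (0.949), *RT1-CE4* (0.949) and *Arpc2* (0.948), of which *RT1-Da* and *Cd74* serve antigen presentation on class II molecules. The r is a description over sums that share libraries, depth and cell types. These sums hold both TN and HC, so r takes in the difference by which *Sgk1* and *Cebpd* were chosen. The 19 sums of TN alone gave other genes for both. *RT1-Da*, *RT1-CE4* and *RT1-A2* belong to multigene families of the major histocompatibility complex, in which counting can split reads between members, so their values are uncertain. *Fkbp5* was most like *Rpl14* (0.897), *RT1-A2* (0.840), *Rpl5* (0.824), *Capg* (0.812) and *Gpr83* (0.808), and *Tsc22d3* most like *Fam13b* (0.905), *Hspa12a* (0.837), *Cadm3* (0.832), *Ppm1l* (0.830) and *Cltb* (0.826). *Gpr83* was at 92.6 CPM in TN2 nerve and 98.3 in TN3, against 1.53 in TN1 and 2.81 in HC. Within the group, r was 0.50 between *Sgk1* and *Cebpd* over the 24 sums and -0.02 over the 19 sums of TN alone. Between *Sgk1* and *Fkbp5*, r was -0.15 over the 24 sums and -0.40 over the 19 sums of TN alone. Between *Cebpd* and *Fkbp5*, it was 0.46 and 0.52 in the same order.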

How the data were processed

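Visium libraries of 4 capture areas were sequenced, aligned and counted by the authors with STAR and Space Ranger 1.2.0 per the labels and the file headers. For the genome build, none is given in the sources used here. The deposited values are raw UMI counts per gene and spot, not normalized, for 32623 genes and 6773 spots, and areas were read from the barcode suffix. Area totals were 23546025 to 41335930 UMIs, which sets the precision of each level, and Poisson and exact binomial intervals (95%) cover counting error only.

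From these counts, spots were placed in regions by the mean z-score of marker lists on log2 counts per 10000, the top list leading by 0.25 or more. Counts were summed per area and region (20 or more spots) and scaled by TMM. Regions were compared with edgeR 4.0.16 (quasi-likelihood test, filterByExpr, area as block), and TN with HC in each region as 3 areas against 1, where the single HC area is assumed to vary like the TN areas. P-values were Benjamini-Hochberg adjusted over all genes tested (threshold 0.05), and they measure the spread between these areas only. Each edgeR standard error is the absolute log2 fold change over the square root of the test's F statistic, which borrows spread across genes. TN to HC log2 ratios used a pseudocount of 1 CPM. The scripts were tested on simulated data. The alternatives were DESeq2 1.42.0 or its size factors, no filter on low counts, each area left out, abundant genes left out, 500 genes and 1000 UMIs per spot, a margin of 0.5, a reduced sensory neuron list, 10 K-means clusters (Seurat 5.3.0, sctransform 0.4.2), spots thinned to 2000 UMIs and, for likeness, TN areas only or a pseudocount of 5.

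The 6 genes and all lists were chosen with earlier results of these data known. Of each pathway list, genes past the threshold in a contrast were picked for naming, at most 4 by size of log2 fold change. Otherwise up to 2 genes were picked, with the largest change and every TN area on the same side of HC. Not all genes picked are given in the text. Others named were singled out after their values were seen. For likeness, the 5 genes of highest Pearson r on log2(CPM + 1) were named. No promoter window of *Cebpd* was used here.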

Additional observations from a re-analysis of the deposited data

Results flagged for a closer look

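In the region ratios of the 4 genes tested, 0 of 12 groups of 4 values were past Dixon's 95% limit, which chance passes in about 1 of 20 groups. With 4 values the limit is passed only by an extreme area, so this does not show that no area stood apart. *Sgk1* for nerve against central myelin came closest, with TN2 at -0.50 and the other areas at 0.51 to 0.73. Of 39 genes checked, 5 had every TN area above HC in 1 region and every TN area below it in another. The 39 were the members and the pathway genes picked for TN against HC. Those pathway genes had been called, or had every TN area on the same side of HC in a region or over all spots. The count thus comes from a filtered set, and the share over all genes was not computed. None of these differences between regions was tested.

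The TN mean of *Per1* was above HC by 0.265 CPM in the ganglion, from 6, 2 and 2 UMIs in the TN areas and 3 in HC. It differed from HC by -0.493 CPM in central myelin, where the value rests on 1 UMI in HC and 0 in TN. Counts this low do not carry a direction. *Ncoa1*, a coactivator of nuclear receptors, differed by 20.3 CPM in central myelin and -3.91 CPM in the ganglion. *Mapkap1*, a subunit of the kinase complex that activates Sgk1, differed by 9.99 CPM in nerve and -2.94 CPM in the ganglion. *Pdp1*, a phosphatase that reactivates pyruvate dehydrogenase, differed by 3.83 CPM in central myelin, 4.57 CPM in the ganglion and -5.19 CPM in nerve. *Cpt1a*, which admits fatty acids to mitochondria, differed by 4.85 CPM in central myelin, -24.0 CPM in the ganglion and -41.8 CPM in nerve.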

How the results depend on the processing

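Of 144 region values of the 4 genes under the alternatives, 128 kept their direction and their side of the threshold. *Sgk1* was called higher in nerve than in central myelin with K-means clusters (log2 fold change 1.07, edgeR adjusted p = 0.00111), where TN2 had no nerve sum. Its ganglion call was lost without TN2 (-0.55) or TN3 (-0.78). The other changes were in values that did not pass. *Fkbp5* for ganglion against central myelin turned to 0.037 with no filter and ran from -0.36 to 0.0068 with an area left out. For nerve against central myelin *Fkbp5* turned to 0.021 with DESeq2 size factors, 0.081 with no filter, 0.022 with the reduced sensory neuron list and 0.039 with K-means clusters, and ran from -0.23 to 0.090 with an area left out. For nerve against ganglion, leaving out an area gave -0.15 to 0.43 for *Fkbp5* and -0.13 to 0.20 for *Tsc22d3*, and no filter gave -0.081 for *Tsc22d3*. The mean TN to HC log2 ratio, by region and over all spots, kept its sign in 43 of 43 values for *Sgk1* and *Cebpd*. It did so in 37 of 43 for *Fkbp5* and 41 of 43 for *Tsc22d3*. Some of the 43 could not change. The DESeq2 values use the main levels, and those over all spots do not depend on how spots were placed.

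Counts of genes called moved more. Nerve against ganglion ran from 2598 (without TN3) to 5316 with an area left out. TN against HC in central myelin gave 41 with no filter and 0 to 25 (without TN1) with an area left out. In the ganglion it gave 179 with DESeq2, 29 with no filter, 3 with a margin of 0.5, 0 with the reduced sensory neuron list, 0 with K-means clusters and 14 to 1267 (without TN1) with an area left out. In nerve it gave 1086 with no filter and 0 (without TN3) to 2138 (without TN1). Over all spots it gave 158 with DESeq2 and 0 to 2171 (without TN1). After thinning, 3 of 9 *Tsc22d3* shares were above HC. Of the 5 genes most like each member, TN areas alone shared 0 for *Sgk1*, 0 for *Cebpd*, 2 for *Fkbp5* and 2 for *Tsc22d3*, and a pseudocount of 5 shared 3 for *Cebpd*. The cause of these changes was not tested. TN against HC in nerve could not be run with K-means clusters, which left TN2 under 20 nerve spots. No paired analysis was possible because HC is 1 area with no number that matches a TN area. Depth limits *Per1* and *Pdk4*, which entered the region fit only with no filter on low counts. *Pdk4* was then called lower in the ganglion than in central myelin (log2 fold change -3.93, SE 1.56, edgeR adjusted p = 0.0411). That call rests on 3 UMIs in TN2 and 1 in HC in central myelin and 2 in HC in the ganglion, too few to carry it. The other contrasts of both genes had edgeR adjusted p from 0.163 to 0.869.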

Other observations

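Genes of pyruvate dehydrogenase control and fatty acid use, the setting in which *Pdk4* acts, were mostly lower in nerve of TN. All 3 TN areas were below HC for 10 of 13 in nerve (33.1% of all genes) and 6 of 13 in the ganglion (31.8%). *Fabp3*, a fatty acid carrier of the cytoplasm, was at 30.2, 22.3 and 32.1 CPM in nerve of the TN areas and 92.1 in HC. Its log2 fold change there was -1.76. A call for *Fabp3* in nerve was lost without TN3 and is not read as a result, since HC is a single area. Sensory neuron markers were also lower in TN nerve spots, for 11 of 12, and their part in these values was not tested. Between regions, 9 of 13 were lower in nerve than in the ganglion by edgeR (24.0% of all genes) and 7 of 13 were higher in the ganglion than in central myelin (24.8%). *Pdk1* was at 6.54 to 9.55 CPM in TN nerve and 10.1 in HC, and *Pdk3* at 12.5 to 13.7 and 16.1.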
